A study of Homo sapiens with 7 samples.

Results

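The 10 genes described here, CDH1, CTNNA1, CTNND1, JUP, EPCAM, TJP1, OCLN, CLDN3, CLDN4 and CLDN7, encode proteins of the adherens and tight junctions of colon epithelium and the epithelial adhesion molecule EPCAM. They were chosen by symbol from the deposited table of 20072 gene symbols. All 10 were listed with values in every library, and all 10 passed the filter, a mean RPKM (reads per kilobase of exon, scaled to the mapped reads of the library) of 1 or more in any of the parameters, which left 14305 genes for testing. The samples were HCT116 cells, an established human colorectal carcinoma line grown in serum-free medium with epidermal growth factor, insulin and transferrin and collected in log phase. No genotype or treatment groups were compared. The parameters were TR (transcription rate) by GRO-seq in 2 libraries, RA (mRNA abundance) by RNA-seq in 3 libraries and TA (translation activity) by sequencing of polysomal mRNA in 2 libraries. GRO-seq sequences the nascent RNA that RNA polymerases lengthen during a run-on in nuclei. For TA alone, cells were held with cycloheximide, which arrests ribosomes on mRNA, before lysis. Each parameter came from its own kind of library, so a difference between parameters and a difference between kinds of library cannot be told apart. The study calls its replicates biological, but nothing in the labels ties them to separate cultures, so the p-values measure only the spread between these libraries.

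Epithelial cells are held together by adherens junctions, in which E-cadherin (CDH1) binds its like on the neighbouring cell. Inside the cell E-cadherin is held by p120-catenin (CTNND1), which keeps it at the surface, and by beta-catenin or plakoglobin (JUP), which bind alpha-catenin (CTNNA1) and through it the actin cytoskeleton. Above them lie the tight junctions, where the claudins (here CLDN3, CLDN4 and CLDN7) and occludin (OCLN) seal the space between cells and ZO-1 (TJP1) is the scaffold that ties them to actin. EPCAM is a surface glycoprotein of epithelial cells that binds CLDN7, and it is widely used as a marker of carcinoma cells. Loss of E-cadherin is a hallmark of the epithelial-mesenchymal transition, and its transcription is repressed by SNAI1 and ZEB1.

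Library sizes worked out from the RPKM values were 3391897 to 5629982 reads for TR, 20299018 to 22532134 for RA and 22421062 to 30805391 for TA. Behind the 10 genes stood between 96 reads (CTNND1, TR replicate 1) and 33774 reads (CTNNA1, TA replicate 1) per gene and library, and CTNND1, CLDN3 and OCLN were the least deeply read. These reads carry no molecular identifiers, so their number speaks to counting error only. Of 12 colon epithelium markers, 6 reached 1 RPKM in RA, and the summed level of the list lay between 1704 and 2312 RPKM in the RA libraries. The keratins KRT8 (700.3 RPKM), KRT18 (394 RPKM) and KRT19 (977 RPKM) led it in RA, whereas villin (VIL1) had 0.0118 RPKM, GPA33 0.169 RPKM and LGALS4 0.0984 RPKM, and CEACAM5 was listed at 0. In RA the label of colon epithelium therefore held for the keratins with KRT20 (8.24 RPKM), CDX2 (8.96 RPKM) and ELF3 (15.1 RPKM). It did not hold for VIL1, GPA33, LGALS4 and CEACAM5, nor for CDX1 (0.00915 RPKM in RA) and CDH17 (0.105 RPKM in RA). The 12 mesenchymal markers summed to 20.7 to 22.5 RPKM in RA, 30.8 to 35.6 in TR and 12.5 to 12.6 in TA, and 3 of them were at 0 in all RA libraries. Most of the sum in RA came from COL1A1 (11.5 RPKM in RA) and FN1 (7.84 RPKM in RA), while VIM had 1.40 RPKM, ZEB1 0.501 RPKM and CDH2 0.0723 RPKM. The 8 markers of blood and endothelial cells summed to at most 0.669 RPKM in RA and 10.3 RPKM in TR. The summed level of the epithelial list was 1067 to 1085 RPKM in TR and 4891 to 5022 RPKM in TA, and its differences between parameters followed KRT8, KRT18 and KRT19. Other members had lower means in RA than in TR, among them VIL1 (6.70 RPKM in TR), CDX2 (16.3 RPKM in TR) and ELF3 (26.5 RPKM in TR and 15.1 RPKM in RA). The part of cell make-up in the results was not tested.

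In RPKM, which allows levels to be compared between genes of different length, the 10 genes spanned a wide range in each parameter. The plot of levels shows the lowest mean in every parameter for CTNND1 and the highest for CLDN4 in TR and for EPCAM in RA and TA. In TR, CLDN4 stood at 399 ± 26.5 RPKM (SD, n = 2), at the 99.7th percentile of the 14305 genes, and its libraries lay apart from those of CLDN7 (134 ± 3.11), which lay apart from EPCAM (61.3 ± 15.5). From EPCAM down through JUP, CTNNA1, CLDN3, TJP1 and CDH1 each neighbour in the order of TR overlapped with the next, so that this middle order was within the spread of the libraries. OCLN (7.26 ± 0.815 RPKM) and CTNND1 (4.54 ± 0.112 RPKM) lay apart at the low end. In RA the order was EPCAM, CLDN4, JUP, CTNNA1, CLDN7, CDH1, TJP1, CLDN3, OCLN and CTNND1. Here the libraries of EPCAM overlapped with those of CLDN4, and those of JUP with those of CTNNA1, while all other neighbours lay apart. TA gave the same order of the means, with EPCAM now apart from CLDN4, and with overlap between CLDN4 and JUP, JUP and CTNNA1, and TJP1 and CLDN3. The ratio of the highest to the lowest mean was 87.9 (TR), 183 (RA) and 431 (TA), and without CTNND1 it was 55.0, 30.2 and 42.1.

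**Figure D1:**
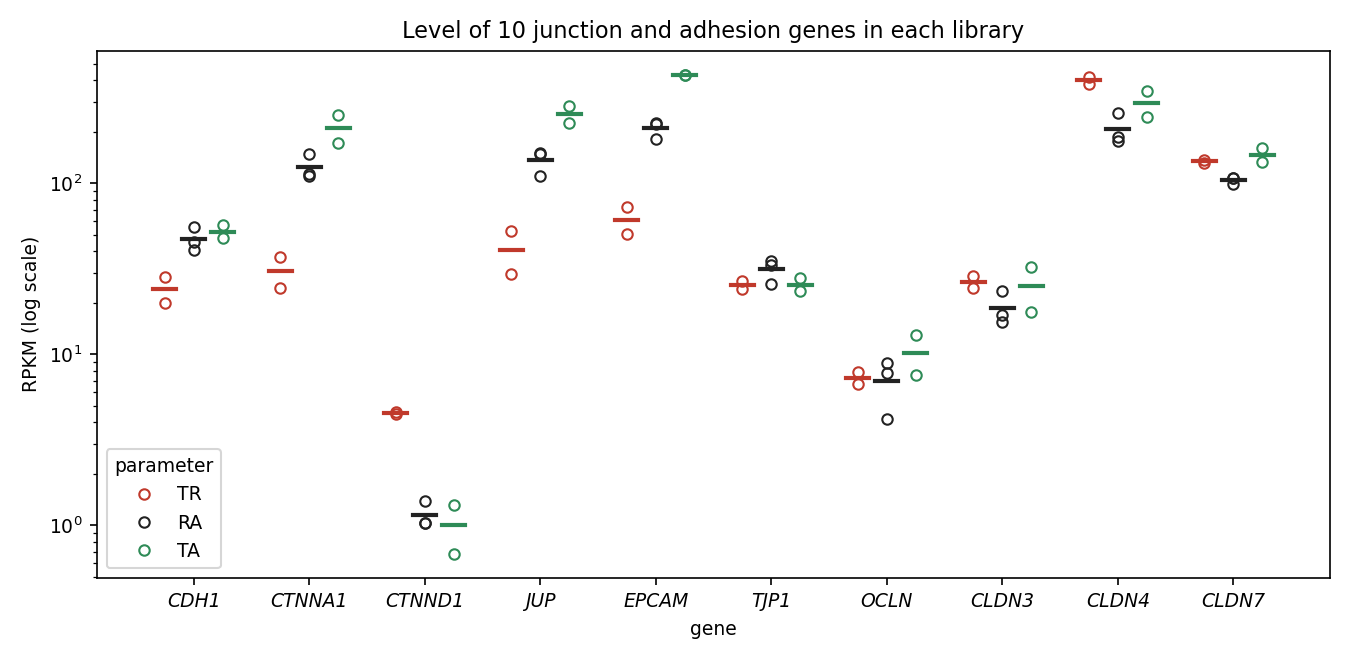
RPKM (log axis) of each of the 10 genes in the 2 TR, 3 RA and 2 TA libraries, with circles for single libraries and bars for the arithmetic mean of a parameter. EPCAM, CTNNA1 and JUP climb from TR to RA to TA without overlap, whereas CLDN4 and CTNND1 have their highest values in TR.

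The first comparison asked how far the mRNA level of each gene departs from its transcription, which the study reads as an RA-TR discrepancy or stability index, log2(RA/TR). Of the 10 genes, 4 were higher in RA than in TR (CDH1, CTNNA1, JUP and EPCAM), 2 were lower (CTNND1 and CLDN4) and 4 did not pass the test (TJP1, OCLN, CLDN3 and CLDN7). Among all genes tested, 19.2% were higher and 48.0% lower by limma at a Benjamini-Hochberg adjusted p under 0.05. The libraries of RA lay wholly above those of TR for 4 genes, against 24.3% of all genes, and wholly below for 4, against 54.9%. RPKM values are shares of a library, so the zero of the index depends on scaling. Over all tested genes the median log2 difference was -0.58. Libraries were also centred, each on its median over the 10825 genes that reached 1 RPKM in TR, RA and TA alike. Centring moved the median of all tested genes to -0.30. It moved the split of all calls from 2743 higher and 6870 lower to 3645 and 5886. The median over the 10 genes was 0.08, and 8 of them lay above the median of all genes. That comparison depends on the background. Over the 10825 genes that reached 1 RPKM in TR, RA and TA alike, the median was -0.17. CTNND1, CLDN3, CLDN4 and CLDN7 lay below it.

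Of the adherens junction genes, 3 of 4 were higher in RA. CDH1, on chr16:68771195-68869440 (hg19/GRCh37, as are all gene positions here), had 28.2 and 20.03 RPKM in TR and 40.8, 55.2 and 45.2 RPKM in RA. Every RA library was above both TR libraries, and RA was 1.96-fold TR, a log2 difference of 0.97 (SE 0.22, limma adjusted p = 0.0042). Without TR replicate 2 the log2 difference of CDH1 was 0.73 and missed the threshold (limma adjusted p = 0.051). CTNNA1, on chr5:137946656-138270723, had 36.8 and 24.4 RPKM in TR and 113, 148 and 110.1 RPKM in RA. These groups lay far apart, and the log2 difference of 2.03 (SE 0.27, limma adjusted p = 0.00024), 4.08-fold, was at the 97.7th percentile of all genes tested. JUP, on chr17:39910856-39943183, had 52.5 and 29.3 RPKM in TR against 148, 111 and 151 RPKM in RA. Its libraries also did not overlap, with a log2 difference of 1.78 (SE 0.29, limma adjusted p = 0.00076), although the ratio between its TR libraries was the largest of the 10 genes. CTNNA1 and JUP thus exceeded CDH1, the cadherin they serve, by an increasing ratio. Alpha-catenin stood at 1.26 ± 0.0623 times CDH1 in TR (SD, n = 2), 2.63 ± 0.175 times in RA (n = 3) and 4.02 ± 0.595 times in TA (n = 2), and the 3 ranges did not overlap. These ratios of RPKM were taken within each library, so they do not depend on the scaling of libraries, and no test was made of them.

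CTNND1, on chr11:57520715-57587018, went the other way. It had 4.46 and 4.62 RPKM in TR, from 96 and 165 reads, and 1.38, 1.03 and 1.03 RPKM in RA, from 178, 148 and 135 reads. No RA library reached either TR library. The log2 difference was -1.90 (SE 0.30, limma adjusted p = 0.00072), at the 26.3rd percentile of all genes tested. This value remains uncertain. Of the annotated exon bases of CTNND1, 39.1% are shared with a protein-coding gene on the same strand and 12.7% with another. RefSeq also lists a read-through transcript, TMX2-CTNND1. None of these is listed in the deposited table. The counting mode is not given in the sources used here, and the share of reads lost or split between these genes was not tested. Without CTNND1, 1 of the remaining 9 genes was lower in RA.

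EPCAM, on chr2:47572297-47614740, had 72.2 and 50.3 RPKM in TR and 181, 223 and 226 RPKM in RA. Its lowest RA library was above its highest TR library by a wide margin, and the log2 difference was 1.79 (SE 0.23, limma adjusted p = 0.00023), 3.46-fold. By its mean, EPCAM passed from the third to the first place among the 10 genes.

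**Figure D2:**
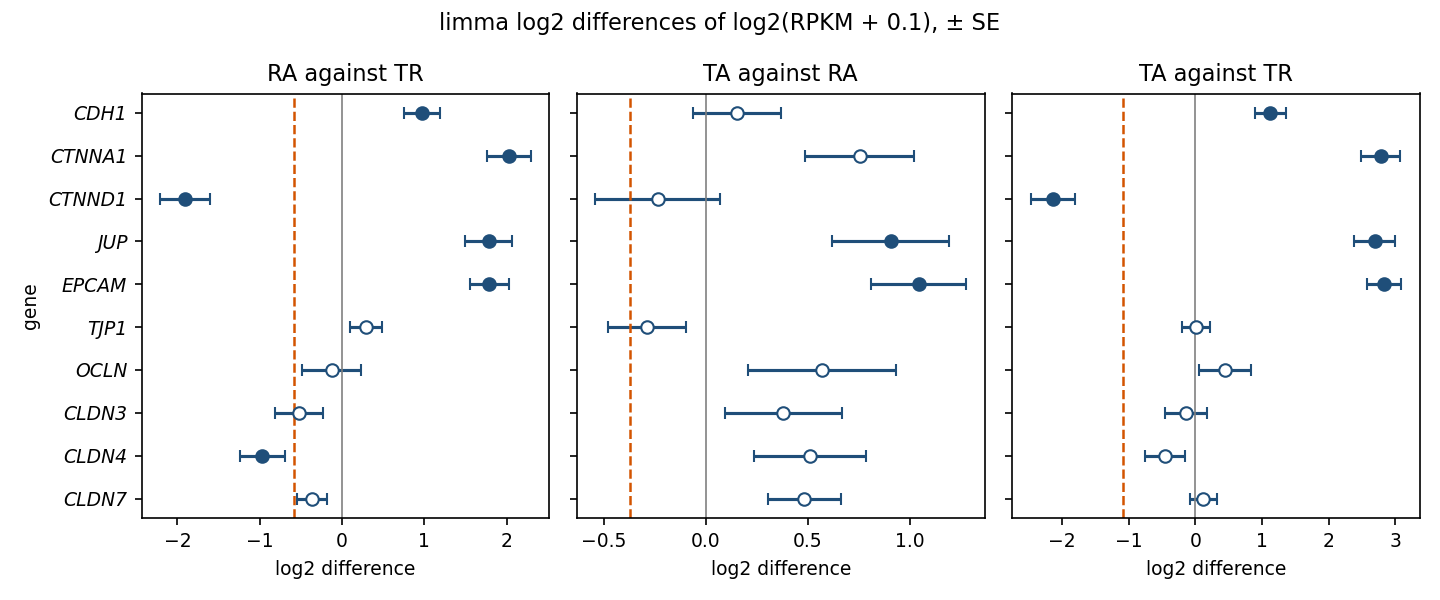
limma log2 differences of log2(RPKM + 0.1) for each gene (points, with bars of ± 1 SE) between RA and TR, TA and RA, and TA and TR, filled where the adjusted p over all genes was under 0.05. The dashed lines are the medians over all 14305 genes, at -0.58, -0.37 and -1.08, and every member but CTNND1 lies to the right of the line in the comparison of TA against TR.

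Of the 5 tight junction genes, none was called higher in RA than in TR by limma, at an adjusted or an unadjusted p under 0.05, and 1 was called lower. CLDN4, on chr7:73213872-73247020, had 418 and 380.2 RPKM in TR against 187, 258 and 176 RPKM in RA. The RA libraries lay wholly below those of TR. The log2 difference was -0.97 (SE 0.27, limma adjusted p = 0.014), at the 41.5th percentile of all genes tested, and TR was 1.95-fold RA. That call did not hold with each library centred on its median (-0.69, adjusted p = 0.063), nor without RA replicate 3 (-0.86, adjusted p = 0.055), TR replicate 1 (-0.90, adjusted p = 0.085) or TR replicate 2 (-1.03, adjusted p = 0.062). Its transcript is a single exon of 1695 bases, next to that of CLDN3, 60.7 kb away on the same chromosome.

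CLDN3, on chr7:73183327-73184600, had 24.3 and 28.7 RPKM in TR and 17.0, 15.5 and 23.5 RPKM in RA. CLDN7, on chr17:7163222-7167302, had 132 and 137 RPKM in TR and 98.7, 107 and 107 RPKM in RA. For both claudins the RA libraries lay below those of TR, but the log2 differences of -0.52 (CLDN3, limma adjusted p = 0.14) and -0.36 (CLDN7, limma adjusted p = 0.11) did not pass the test. Both were above the median of all genes, by 0.06 and 0.22 on the log2 scale. Both were below the median of -0.17 over the 10825 genes that reached 1 RPKM in TR, RA and TA alike. TJP1, on chr15:29991571-30261118, had 26.7 and 24.1 RPKM in TR and 25.7, 33.2 and 35.2 RPKM in RA, which overlapped. Its log2 difference of 0.29 did not pass the test, but did so with centred libraries (0.57, limma adjusted p = 0.032). OCLN, on chr5:68788119-68853931, had 6.68 and 7.83 RPKM in TR and 4.18, 8.87 and 7.81 RPKM in RA, and its log2 difference of -0.13 turned to 0.16 with centred libraries and to 0.20 without RA replicate 1. A transcribed pseudogene of OCLN is listed apart in the table, so reads of OCLN that match both are uncertain.

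The second comparison asked how far polysomal mRNA departs from total mRNA, read by the study as a translation index, log2(TA/RA). EPCAM and JUP were higher in TA than in RA, and none of the other 8 genes passed the test in either direction, whereas 6.66% of all genes tested were higher and 29.2% lower. At an unadjusted p under 0.05 the genes higher in TA were the same 2 with CTNNA1 and CLDN7. The TA libraries lay wholly above those of RA for EPCAM, JUP, CTNNA1 and CLDN7, as for 14.4% of all genes, and wholly below for none, against 43.8%. The median of the 10 genes was 0.50, against -0.37 over all genes, and all 10 lay above that value. Here too the background was not matched for level. Over the 10825 genes that reached 1 RPKM in TR, RA and TA alike, the median was -0.280. TJP1, at -0.288, lay just below it. Centring each library moved the median of all genes to -0.01 and the split of all calls from 953 higher and 4173 lower to 2109 and 2022, and the number of the 10 genes called higher from 2 to 4.

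EPCAM had 431 RPKM in each TA library, against its RA values of 181, 223 and 226. TA was 2.06-fold RA, and the log2 difference of 1.04 (SE 0.23, limma adjusted p = 0.013) was at the 98.5th percentile of all genes. This call rested on both TA libraries, since the adjusted p was 0.068 without TA replicate 1 and 0.054 without TA replicate 2, at the same log2 difference of 1.04. JUP had 226 and 284 RPKM in TA, above its RA values of 148, 111 and 151, with a log2 difference of 0.91 (SE 0.29, limma adjusted p = 0.041). Its call was lost without TA replicate 1, TA replicate 2 or any of the 3 RA replicates, at adjusted p between 0.051 and 0.18, and without the filter on low values (adjusted p = 0.062). No member was called without either TA library.

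CTNNA1, at 251 and 171 RPKM in TA, had a log2 difference of 0.76 (limma adjusted p = 0.058) that passed with centred libraries (1.11, adjusted p = 0.021) and without RA replicate 2 (0.89, adjusted p = 0.040). CLDN7, at 133 and 160 RPKM in TA, had one of 0.48 (limma adjusted p = 0.068) that passed with centred libraries (0.84, adjusted p = 0.014). For these genes every TA library was above every RA library. With all libraries and without centring, the differences passed limma at an unadjusted p under 0.05 but not after adjustment over all genes.

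CDH1 had 56.6 and 47.6 RPKM in TA, within reach of its RA values, and a log2 difference of 0.15 (limma adjusted p = 0.61). CLDN4 had 345 and 244 RPKM, CLDN3 17.8 and 32.2 RPKM and OCLN 12.9 and 7.56 RPKM in TA, with log2 differences of 0.51, 0.38 and 0.57. For CLDN3 and OCLN the TA libraries differed from each other 1.5-fold or more, and no difference from RA could be told from that spread. TJP1 had 27.8 and 23.3 RPKM and CTNND1 1.32 and 0.681 RPKM in TA, and their log2 differences of -0.29 and -0.24, the lowest of the 10 genes, turned to 0.07 and 0.12 with centred libraries.

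TA was also compared directly with TR, which shares its libraries with both comparisons above. CDH1 (log2 difference 1.12, limma adjusted p = 0.0027), CTNNA1 (2.78, adjusted p = 5.0e-05), JUP (2.69, adjusted p = 9.4e-05) and EPCAM (2.83, adjusted p = 2.1e-05) were higher in TA, and CTNND1 (-2.14, adjusted p = 0.00050) was lower. Over all genes tested 17.0% were higher and 57.5% lower, with a median log2 difference of -1.08. The libraries of TA lay wholly above those of TR for 4 genes (22.7% of all genes) and wholly below for 2, CTNND1 and CLDN4 (65.5% of all genes). These 5 calls held without each library in turn. EPCAM in TA was 7.13-fold its TR, at the 98.7th percentile of all genes, and none of the other 5 genes, all of the tight junction, passed the test. With centred libraries 7 genes were called higher, as TJP1 (0.64), OCLN (1.08) and CLDN7 (0.76) were added and the split of all calls moved from 2439 higher and 8231 lower to 3943 and 6331.

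**Figure D3:**
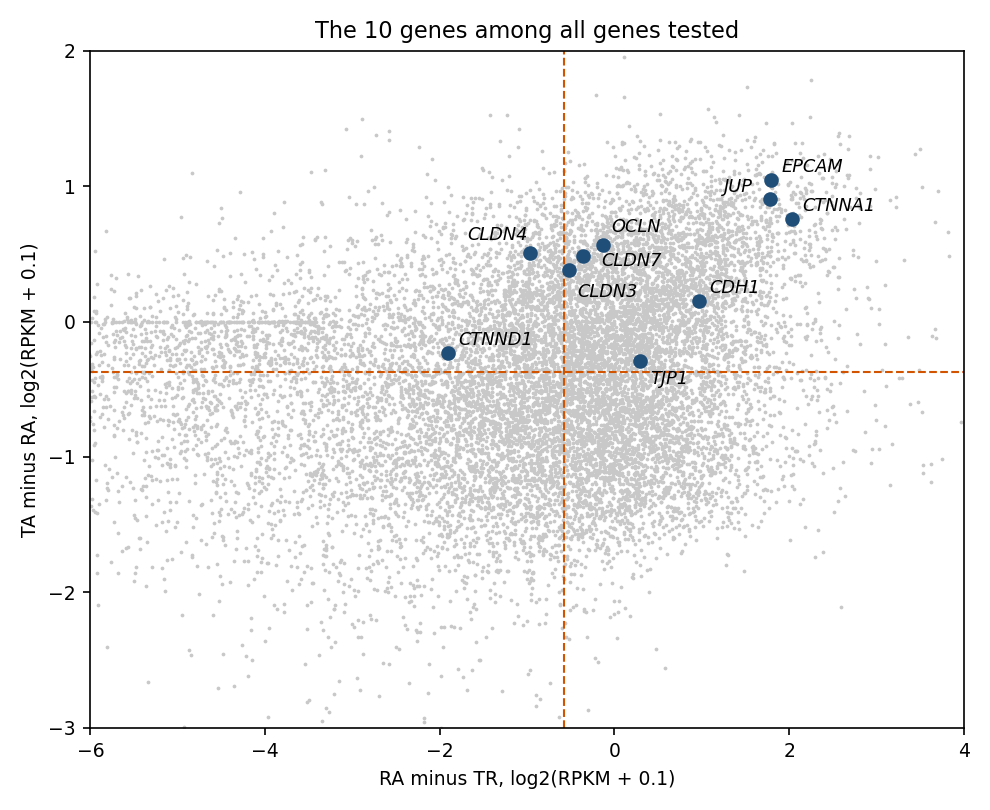
Each gene by its log2 difference of RA against TR (horizontal) and of TA against RA (vertical), both from limma on log2(RPKM + 0.1), with the 10 genes in blue, all genes tested in grey and the medians over all genes as dashed lines. RA enters both axes with opposite sign, and 386 of the 14305 genes fall outside the drawn range. EPCAM, JUP and CTNNA1 lie together in the upper right, and CLDN4, CLDN3, CLDN7 and OCLN lie left of 0 on the horizontal axis and above 0 on the vertical.

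The make-up of the set differed between parameters. Within each library the RPKM values of the 10 genes were expressed as a share of their sum, which does not depend on library scaling. The 3 claudins made up 71.6% and 77.2% of the sum for TR, 37.04%, 39.7% and 34.7% for RA and 33.01% and 31.2% for TA. Their share was thus lower in every RA library than in every TR library, and lower again in both TA libraries. CLDN4 alone held 52.1% and 53.8% for TR and 19.9% to 26.9% in RA. The 4 adherens junction genes held 15.2% and 11.1% in TR, 37.1%, 32.8% and 34.8% in RA, and 35.6% and 35.9% in TA, so RA and TA overlapped while both lay above TR. EPCAM held 9.01% and 7.13% in TR, 22.2%, 23.2% and 25.6% in RA, and 28.7% and 30.7% in TA, and was the only 1 of the 10 genes whose share was higher in every library at both steps. Shares of a fixed sum are tied to each other, and CLDN4 held the largest share in TR. With CLDN4 left out of the sum, EPCAM held means of 17.1% (TR), 30.8% (RA) and 37.2% (TA), and CLDN7 38.1%, 15.4% and 12.7%. EPCAM and CLDN7, whose proteins bind each other, stood at a ratio of EPCAM to CLDN7 of 0.458 ± 0.126 in TR (SD, n = 2), 2.005 ± 0.149 in RA (n = 3) and 2.96 ± 0.390 in TA (n = 2).

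**Figure D4:**
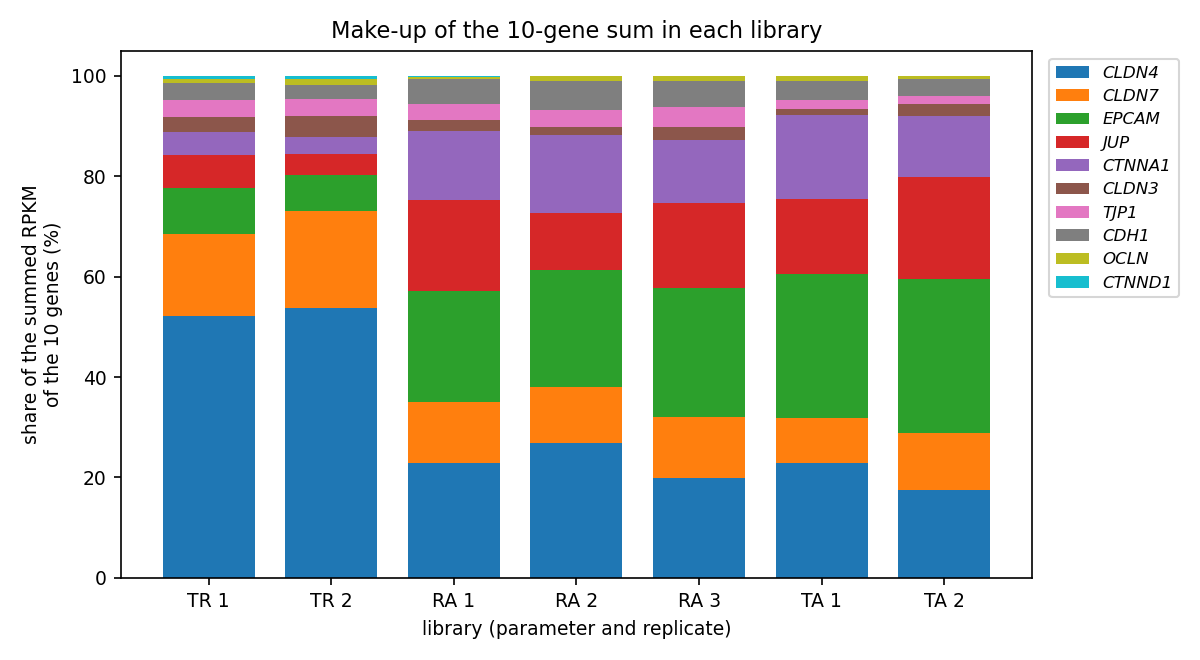
Share of each gene in the summed RPKM of the 10 genes (vertical axis, %) in each of the 7 libraries. CLDN4 takes 52.1% and 53.8% of the bar in the TR libraries and at most 26.9% in any other library. EPCAM, JUP and CTNNA1 take larger shares in every RA and TA library than in TR.

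The genes differ widely in structure. In the canonical transcripts of the reference annotation, CTNNA1 spans 182 kb in 18 exons, TJP1 122 kb in 28 exons and CDH1 98.2 kb in 16 exons, against a median of 23.2 kb and 8 exons over 17902 protein-coding genes of the table. CLDN3 and CLDN4 have a single exon each and CLDN7 has 4 exons over 2.58 kb. TR was counted over exons only, so reads in introns did not enter it. The effect of this on TR between genes was not tested. UTRs, the subject of part of the study, made up 27.6% of the transcript of CTNNA1, 36.2% of JUP, 39.1% of EPCAM and 45.0% of CDH1, the 4 genes higher in RA than in TR. All 4 were below the median of 48.3% over protein-coding genes, and the genes lower in RA were above it, with 56.5% for CTNND1 and 63.0% for CLDN4. Among the 4 genes that were not called, TJP1 (26.2%) and CLDN3 (48.2%) were below and CLDN7 (58.9%) and OCLN (74.7%) above. This pattern was noticed after the values were seen, and the transcripts used by these cells were not determined. The study made a different comparison, of UTR share with the correlation between its stability and translation indices. It reported higher UTR shares for mRNAs with high stability but low translation. That relation was not tested here. Small overlaps with other genes touch CDH1 (an antisense non-coding RNA, 5.71% of exon bases), CTNNA1 (LRRTM2 on the opposite strand, 5.04%) and CLDN7 (a gene on the same strand, 10.8%, and ELP5, 1.52%). The library kit named by the study does not mark strand as described, so reads of such antisense pairs cannot be told apart.

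Promoter sequence was examined because the TR values of these genes, counted over exons only, differed widely. Another reason was that SNAI1 and ZEB1 bind E-boxes in the promoters of junction genes. RefSeq windows (GRCh38.p14, 250 bases before to 50 after a start) were matched for 7 of the 10 genes, with 16 windows in all, and CDH1, EPCAM and CTNND1 are named only. The E-box CACCTG, searched on both strands over the bases before the start, was present in 5 of 16 windows and in 4 of 7 genes, against 17.5% of 35116 windows in the table. CLDN7 held 4 copies in a single window and JUP held 2. Stretches of 30 bases around a copy are given 5′ to 3′ on the strand of the gene to show the letters matched, with the matched E-box (here as its reverse complement, CAGGTG) in capitals.
CLDN7, chr17:7262481-7262510, minus strand: cctacatatactCAGGTGcgccccacctgt
JUP, chr17:41786002-41786031, minus strand: ccacctgccgagCAGGTGagcgcacggagt
OCLN, chr5:69492502-69492531, plus strand: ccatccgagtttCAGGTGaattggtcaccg
TJP1, chr15:29969120-29969149, minus strand: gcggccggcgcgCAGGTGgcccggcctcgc
The stretches of CLDN7 and JUP each hold a further copy, cacctg in lower case. CTNNA1, CLDN3 and CLDN4 had no copy in their windows. The GC box GGGCGG was present in at least 1 window of all 7 genes and in 10 of 16 windows, against 42.6% of all windows. TATAAA was in none of the 16, against 10.7%, and AACCNGTT, a motif of the epithelial GRHL factors, in none, against 1.49%. The shares over the table are per window, and no share of genes was computed. The 7 genes have 1 to 4 windows each, some of which overlap, so their counts cannot be set against those shares. A match is a description of letters and not of binding.

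By distance over mean log2 TR, RA and TA among the 10825 genes that reached 1 RPKM in TR, RA and TA alike, the nearest genes to CDH1 were PBK, a mitotic kinase (distance 0.084), COL6A1, a collagen chain (0.092), and CNPY3 (0.11). PBK had 23.8, 48.7 and 49.8 RPKM in TR, RA and TA, against 24.1, 47.1 and 52.1 for CDH1. Genes near to EPCAM included TMBIM6 (0.23) and PRDX5 (0.35), and TMBIM6 had 65.9, 224 and 378 RPKM against 61.3, 209.9 and 431 for EPCAM. To CLDN4 the nearest were TNFRSF12A (0.54), PHLDA2 (0.55) and TUBB4B (0.65), so that no gene came as near to CLDN4 as to the others. Among the 10 genes, CTNNA1 and JUP were the nearest pair, at 0.52, followed by TJP1 and CLDN3, at 0.75.

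The wider junction and adhesion genes were taken as 5 lists of 109 genes, of which 104 are listed in the table and 92 were tested. The highest and lowest genes of a list are given among those that reached 1 RPKM in TR, RA and TA alike. In RA against TR, 36 of the 92 were higher (39.1%, against 19.2% of all genes) and 21 lower (22.8%, against 48.0%), with a median log2 difference of 0.29, and without TR replicate 2 the count of higher genes was 21. In TA against RA, 6 were higher (6.52%, against 6.66% of all genes) and 18 lower (19.6%, against 29.2%), with a median of -0.06, and without TA replicate 1 these counts were 2 and 7, and without TA replicate 2 they were 1 and 10. Without RA replicate 3, 11 were lower. With centred libraries 19 were higher and 8 lower in TA against RA, so the direction of that balance depends on scaling.

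Of 12 tested adherens junction genes, 7 were higher in RA than in TR (58.3%, against 19.2% of all genes) and 2 lower (16.7%, against 48.0%). The highest of those above the limit was CTNNB1, beta-catenin, at 33.02 ± 8.22 RPKM in TR (SD, n = 2) and 113 ± 19.4 in RA (n = 3), a log2 difference of 1.77 (limma adjusted p = 0.00019), close to that of CTNNA1 and JUP. The lowest of these was ARVCF, a catenin of the p120 family like CTNND1, at 28.9 ± 3.62 and 9.03 ± 0.472 RPKM, with a log2 difference of -1.66 (limma adjusted p = 6.6e-05). In TA against RA none of the 12 was higher by limma (1 at an unadjusted p under 0.05) and 3 were lower (25%, against 29.2% of all genes). Above the limit the ends were ACTN4, an actin cross-linker, at 0.62 (limma adjusted p = 0.14), and PKP4, an armadillo protein, at -1.26 (adjusted p = 0.0045). The nectins are not analysed here.

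Of 22 tested tight junction genes, 7 were higher (31.8%, against 19.2% of all genes) and 6 lower (27.3%, against 48.0%) in RA than in TR, with a median of -0.03. For TA against RA, 2 were higher (9.09%, against 6.66%) and 6 lower (27.3%, against 29.2%). Above the limit of 1 RPKM, CLDN15 was lowest in both, at 41.0 ± 9.0 RPKM (TR), 6.63 ± 2.78 (RA) and 1.98 ± 0.294 (TA), with log2 differences of -2.68 (limma adjusted p = 0.00027) and -1.61 (adjusted p = 0.012). Above the same limit YBX3, a transcription factor that binds ZO-1, was highest in RA against TR, at 1.33 (limma adjusted p = 0.0025). LSR, which marks tricellular corners, was highest in TA against RA, rising from 180 ± 25.8 to 360 ± 66.7 RPKM (log2 difference 1.003, limma adjusted p = 0.016).

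**Figure D5:**
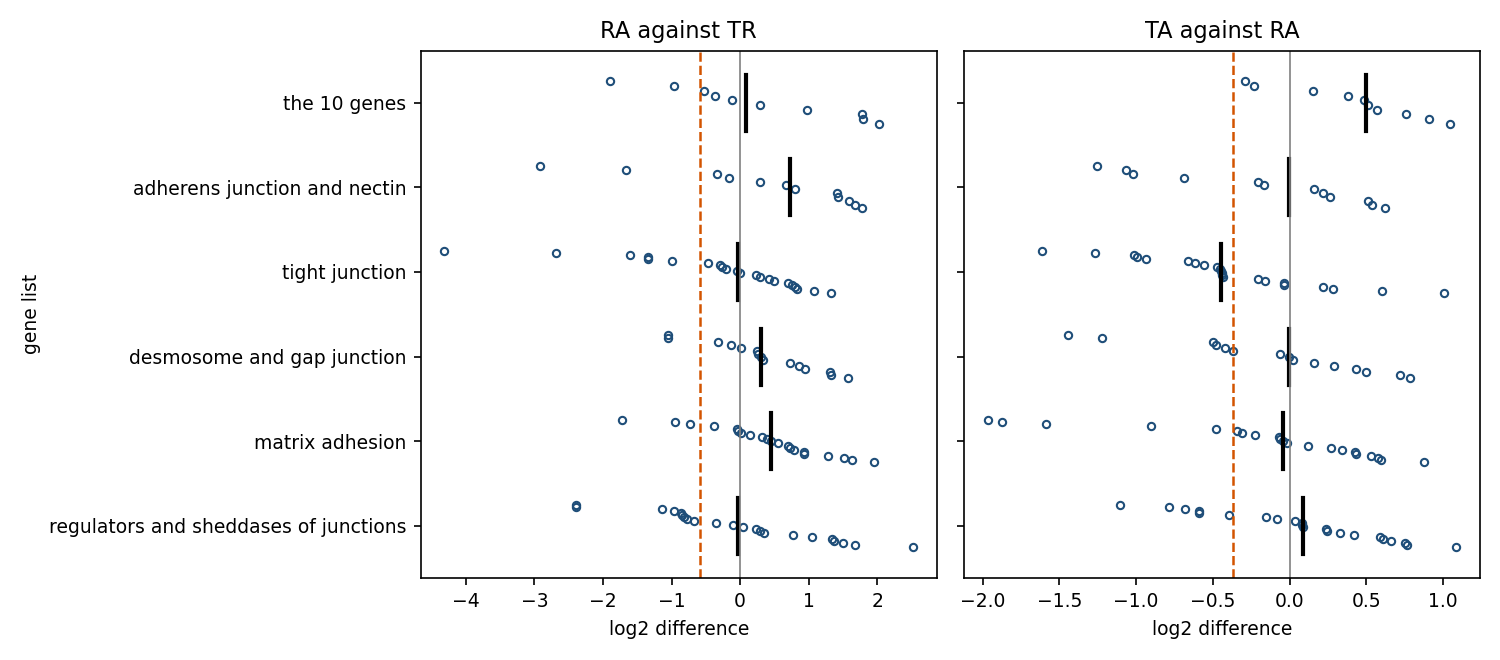
limma log2 differences of RA against TR (left) and TA against RA (right) for the 10 genes and for each tested gene of the 5 wider lists (circles), with black bars for list medians and dashed lines for the medians over all genes tested. In TA against RA the median of the 10 genes is 0.50, and the medians of the wider lists run from -0.45 for the tight junction list to 0.09 for the regulators.

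Of 15 tested desmosome and gap junction genes, 6 were higher (40%, against 19.2% of all genes) and 2 lower (13.3%, against 48.0%) in RA than in TR. Above the limit of 1 RPKM, PERP, a membrane protein of desmosomes, was highest in both comparisons, at 41.0 ± 7.09, 122 ± 19.9 and 203 ± 49.6 RPKM in TR, RA and TA, with log2 differences of 1.57 (limma adjusted p = 0.00057) and 0.72 (adjusted p = 0.049). EVPL, a plakin, was lowest in both above that limit, at -1.05 (limma adjusted p = 0.014) and -1.44 (adjusted p = 0.0094). Of 21 matrix adhesion genes, 9 were higher (42.9%) and 3 lower (14.3%) in RA than in TR. LAMB3, a laminin chain, was highest at 1.95 (limma adjusted p = 0.020) with RA libraries that differed widely (87.4 ± 61.2 RPKM, SD, n = 3), and COL17A1, a collagen of hemidesmosomes, was lowest at -1.72 (adjusted p = 0.017). In TA against RA the tetraspanin CD151 was highest at 0.87 (limma adjusted p = 0.020), and DST, a plakin of hemidesmosomes, was lowest at -1.97 (adjusted p = 0.0021).

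Of 22 tested regulators and proteases, 7 were higher (31.8%, against 19.2% of all genes) and 8 lower (36.4%, against 48.0%) in RA than in TR. Among those lower were the transcription factors SNAI1, ZEB1, GRHL2, CDX2 and HNF4A, and among those higher were the membrane protease ST14, its inhibitors SPINT1 and SPINT2, and ADAM10, which sheds E-cadherin. These names beyond the ends of the list were chosen after their values were seen. The factors GRHL1, KLF4, KLF5 and ELF3 and the proteases PRSS8 and ADAM17 did not pass the test in RA against TR. ZEB1 (0.501 RPKM) and HNF4A (0.321 RPKM) were under 1 RPKM in RA. SNAI1, the repressor of CDH1, had 72.8 ± 8.91 RPKM in TR (SD, n = 2), 14.0 ± 2.77 in RA (n = 3) and 20.8 ± 2.03 in TA (n = 2), and the lowest log2 difference of RA against TR among the genes of the list above the limit of 1 RPKM, at -2.39 (limma adjusted p = 2.1e-05). SPINT2 was the highest of them, at 56.4 ± 18.6 and 318 ± 41.7 RPKM in TR and RA, a log2 difference of 2.52 (limma adjusted p = 7.0e-05). Above the same limit, in TA against RA, PRSS8, a protease of epithelial surfaces, was highest at 1.09 (limma adjusted p = 0.0061) and CDX2, the intestinal homeobox factor, lowest at -0.79 (adjusted p = 0.024).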

How the data were processed

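TR, RA and TA of HCT116 cells were analysed from 7 libraries. The authors mapped reads with TopHat at default parameters to hg19 after base calling with CASAVA, counted reads over exons with HTSeq and deposited RPKM values per gene and library. Tool versions, counting mode, strand setting and gene annotation are not given in the sources used here. Library sizes were recovered from the RPKM values of 725 genes, since the product of a value, its exon length and the library size is a whole read number (tolerance 0.001, 100% of exon lengths). No column of the table was left without a sample.

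Here log2(RPKM + 0.1) was fitted with limma 3.58.1 in R 4.3.3 (all 7 libraries in 1 fit, trend in eBayes) over the 14305 genes whose mean reached 1 RPKM in any of TR, RA and TA, with Benjamini-Hochberg adjustment at 0.05. Fold changes are on the log2(RPKM + 0.1) scale, which understates those of low genes. RPKM values are not counts, so no count model was used. The fit and the recovery were tested on simulated data. Tables were made in Python 3.11.15 with pandas 2.3.3 and numpy 2.4.6, and plots in matplotlib 3.10.9. Gene structures are from GENCODE release 44 lifted to GRCh37, promoters from RefSeq.

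The members and lists were chosen with earlier results of these data known. Named genes are the 10 members and, in each wider list, the highest and lowest log2 difference in the first 2 comparisons among genes that reached 1 RPKM in all parameters, with defining markers, and the 3 nearest genes to CDH1, EPCAM and CLDN4, of which 1 is not reported here. Alternatives were other pseudocounts (0.01 and 1), other filters, centring on the library median, a replicate block, only the libraries compared, no trend and each replicate left out. The library median was taken over the genes that reached 1 RPKM in all parameters. Leaving out CTNND1 was added after seeing the data. Lists are described by counts and medians only.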

Additional observations from a re-analysis of the deposited data

How the results depend on the processing

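Depth limits TR most, with 3391897 reads in the smallest library, and CTNND1 rested on 96 to 258 reads per library. With 2 or 3 libraries per parameter, calls near the threshold turned on single libraries. Of the 4 calls higher and 2 lower among the 10 genes in RA against TR, the lower count was 1 with centred libraries, 1 with the replicate block and 1 with CTNND1 left out. In TA against RA the 2 calls were 4 with centred libraries, 1 without the filter on low values and 0 with the replicate block, and in TA against TR the 4 higher calls were 7 with centred libraries and the 1 lower call was 0 with CTNND1 left out. Over all genes, requiring at least 1 RPKM in each parameter gave 3656 lower in RA than in TR and 4935 lower in TA than in TR, fewer genes being tested. Centring gave 2109 higher and 2022 lower in TA against RA, and 3943 higher in TA against TR. In the wider lists, centring gave 19 higher and 8 lower in TA against RA.

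The labels number replicates within each assay and nothing ties equal numbers to a culture. Deviations from the group means of equally numbered libraries had r of 0.149 for TR and RA, -0.562 for RA and TA and 0.020 for TR and TA over 10825 genes, so the numbers were not taken as pairs. With the replicate block, 109 genes were higher and 1387 lower in TA against RA, and the wider lists gave 23 higher in RA against TR and 1 higher and 5 lower in TA against RA.

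Leaving out each replicate in turn gave, for the 10 genes, 3 to 4 higher and 1 to 2 lower in RA against TR, 0 to 2 higher and 0 lower in TA against RA, and 4 higher and 1 lower in TA against TR. Over all genes it gave 1843 to 2791 higher and 5406 to 6968 lower in RA against TR, 200 to 1030 higher and 1806 to 4225 lower in TA against RA, and 1933 to 2602 higher and 7141 to 8472 lower in TA against TR. For the wider lists it gave 21 to 40 higher and 14 to 22 lower in RA against TR, and 1 to 7 higher and 7 to 19 lower in TA against RA.

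No gene that passed the test changed its sign. Signs turned only where no call was made. With centred libraries this was so for OCLN in RA against TR (0.16), CTNND1 (0.12) and TJP1 (0.0696) in TA against RA, and CLDN3 (0.50) and CLDN4 (0.18) in TA against TR. Without 1 replicate, the log2 difference ran from -0.33 to 0.20 for OCLN in RA against TR, from -0.67 to 0.19 for CTNND1 and from -0.0457 to 0.81 for CLDN3 in TA against RA, and, in TA against TR, from -0.12 to 0.13 for TJP1, from -0.57 to 0.28 for CLDN3 and from -0.0131 to 0.26 for CLDN7. The causes of these shifts were not tested.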

Other observations

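Several other adhesion genes of the wider lists, chosen after their values were seen, were higher in RA than in TR without passing the test in TA against RA. CDH3, P-cadherin, had 37.4 ± 7.92 RPKM in TR (SD, n = 2), 99.1 ± 14.1 in RA (n = 3) and 144 ± 28.7 in TA (n = 2), a log2 difference of 1.41 for RA against TR (limma adjusted p = 0.00072). The desmosomal cadherin DSG2 had 27.1 ± 10.8 RPKM in TR and 65.1 ± 7.03 in RA, a log2 difference of 1.31 (limma adjusted p = 0.0020), and ITGB1, the beta chain of many integrins, 63.1 ± 22.9 and 193 ± 50.6 RPKM, a log2 difference of 1.63 (limma adjusted p = 0.0016). The splicing regulators of epithelial cells ESRP1 and ESRP2 passed the test in opposite directions, at log2 differences of 1.34 and -0.82 for RA against TR (limma adjusted p = 0.00068 and 0.0027), and both directions were the same in TA against TR. CLDN2, a claudin that forms cation pores, had 9.85 ± 2.29 RPKM in TR but 0.440 ± 0.271 in RA, a log2 difference of -4.31 (limma adjusted p = 4.3e-05).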
